A study of Mus musculus with 8 samples.

Results

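The transcripts described here are 10 genes best known from neutrophils and monocytes, measured in RNA of sorted brain microglia. They are Ngp, Ltf, Lcn2, S100a8, S100a9, Mmp8, Mmp9, Retnlg, Ly6c2 and Ace, 10 of the 56832 rows of the deposited table. Retnlg, Mmp8 and Ace were selected on their normalized counts, because these varied between the 8 libraries, so they are described with no test. The other 7 were named with earlier results of these data known.

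The RNA came from microglia, brain-resident macrophages, that were sorted by flow cytometry out of male 5xFAD mice in young adulthood, and it was sequenced to ask whether long exposure to ethanol altered the transcriptome. Mice of the ethanol group received 3 g/kg of ethanol as a 20% solution by intraperitoneal injection on 5 days of each week for 4 weeks, and mice of the saline group received saline on the same schedule. Both groups then had 2 weeks without injections, and both carried the 5xFAD transgenes, which drive mutant human amyloid precursor protein and presenilin from a neuronal promoter, so no library came from mice without them. Each group had 4 libraries, called ethanol 1 to 4 and saline 1 to 4 after their titles, and whether every library had a mouse of its own is not stated, so p-values measure the spread between libraries, part of which may be technical.

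Neutrophils are short-lived blood cells that carry ready-made granules of antimicrobial proteins and proteases. The genes for these proteins are transcribed in bone marrow precursors in successive waves: azurophil granule genes such as Mpo and Elane first, then specific granule genes such as Ltf, Ngp, Camp and Lcn2, and last the genes of gelatinase granules and of mature cells. C/EBP transcription factors, C/EBP-epsilon above all, drive the specific granule wave. Monocytes divide into a classical subset, marked in mouse by Ly6C, and a nonclassical subset that patrols vessels.

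The 250 bases before the annotated start are shown for 5 of the genes, because their transcripts fell into 2 patterns over all 8 libraries. The gap between these patterns rests on saline 1, as described below. Ngp, Ltf and Lcn2 went with one pattern and Retnlg and Mmp8 with the other. The sequences are RefSeq's for mouse build GRCm38.p6, an older build than the table's GRCm39, matched by symbol and written 5′ to 3′ on the gene's strand. Capitals mark each match to TTNCNNAA on either strand, a motif of C/EBP factors.
Ngp (chr9:110419558-110419807, plus strand): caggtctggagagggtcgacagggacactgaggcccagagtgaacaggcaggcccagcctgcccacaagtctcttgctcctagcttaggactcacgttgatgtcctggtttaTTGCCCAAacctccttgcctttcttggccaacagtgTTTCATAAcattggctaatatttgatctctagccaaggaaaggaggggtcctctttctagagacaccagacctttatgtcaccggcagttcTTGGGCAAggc
Ltf (chr9:111019042-111019291, plus strand): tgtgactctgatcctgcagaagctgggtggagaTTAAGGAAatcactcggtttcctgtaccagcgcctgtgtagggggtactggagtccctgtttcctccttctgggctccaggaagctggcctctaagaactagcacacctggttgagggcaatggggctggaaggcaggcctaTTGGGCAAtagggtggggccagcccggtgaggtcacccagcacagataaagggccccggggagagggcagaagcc
Lcn2 (chr2:32387740-32387989, minus strand): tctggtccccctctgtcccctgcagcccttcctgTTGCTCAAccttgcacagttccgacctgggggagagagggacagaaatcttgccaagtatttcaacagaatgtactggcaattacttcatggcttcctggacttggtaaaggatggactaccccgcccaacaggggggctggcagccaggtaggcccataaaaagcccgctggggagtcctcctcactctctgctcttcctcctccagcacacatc
Retnlg (chr16:48872358-48872607, plus strand): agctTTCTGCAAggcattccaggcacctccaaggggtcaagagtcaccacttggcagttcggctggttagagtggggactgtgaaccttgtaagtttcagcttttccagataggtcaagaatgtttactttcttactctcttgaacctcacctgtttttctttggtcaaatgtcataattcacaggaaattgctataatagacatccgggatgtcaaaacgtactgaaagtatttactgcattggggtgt
Mmp8 (chr9:7558179-7558428, plus strand): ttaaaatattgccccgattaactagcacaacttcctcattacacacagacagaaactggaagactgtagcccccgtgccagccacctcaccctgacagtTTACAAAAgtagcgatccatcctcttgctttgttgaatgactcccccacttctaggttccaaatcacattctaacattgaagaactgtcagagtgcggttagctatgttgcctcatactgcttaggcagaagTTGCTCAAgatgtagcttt

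Ngp had 3 matches in this window, Ltf and Mmp8 2 each, and Lcn2 and Retnlg 1 each, so both patterns held the motif. S100a8, S100a9 and Ly6c2 held it too, and the Ace windows did not. The motif was in 36.8% of the 32536 promoter windows of the same length, so its presence is common. A match is a run of letters and not a measured binding site. Mmp9 is named only.

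The libraries held 14271351 to 17231301 reads assigned to genes, and the test covered 14428 genes that averaged 10 normalized counts or more. Microglial markers, 12 genes including P2ry12 and Tmem119, made up 5.43% to 5.69% of the normalized counts in ethanol and 5.17% to 5.46% in saline libraries. Of the markers of other cells, Ms4a1, Pax5 and Cd3e of B and T cells and Emcn and Abcb1a of endothelium were at 0 in every library. Others of the same lists were detected in all 8, with means of 7945 normalized counts for Ighm and 822 for Cd79b of B cells and 449 for Pecam1 and 149 for Kdr of endothelium. Of the neutrophil surface genes, Cxcr1, Stfa1, Stfa2 and Stfa3 were at 0, while Ly6g and Cxcr2 were above 0 in every library at low levels. Cxcr2 was nearly absent from 2 libraries, with 1.93 normalized counts in saline 2 and 0.908, the value of 1 read, in saline 4. Which cells made these transcripts was not tested. In bulk RNA, fewer cells of a type and less RNA per cell cannot be told apart.

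Specific granule transcripts were present in all 8 libraries at moderate levels. Ngp, a cathelicidin-related protein of neutrophil granules, had 1050.5, 1592, 1896 and 3233 normalized counts in ethanol 1 to 4, against 6596, 1127, 2499.6 and 964 in saline 1 to 4. Saline 1 was the highest and saline 4 the lowest library, so the ethanol values lay inside the range of the saline values. Ngp averaged 1943 ± 928 in ethanol and 2797 ± 2625 in saline libraries (SD, n = 4 each), and the fold was 0.870 (95% interval 0.454 to 1.67). Its log2 fold change of -0.20 (SE 0.443, limma adjusted p = 0.997) turned positive without saline 1, at 0.36, and without ethanol 1, at 0.05.

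Ltf encodes lactoferrin, an iron-binding protein of specific granules. It had 379, 644, 545 and 1311 normalized counts in ethanol 1 to 4, against 1922, 361, 894 and 269.8 in saline 1 to 4. The same libraries were highest and lowest as for Ngp. The fold of Ltf was 1.01 (95% interval 0.511 to 2.00, limma adjusted p = 0.999), with means of 719.5 ± 409 in ethanol and 862 ± 759 in saline libraries (SD, n = 4 each). The mean of the values was lower in ethanol, while the fold, taken on the log2(value + 1) scale, was near 1.

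Lcn2 encodes lipocalin 2, which binds bacterial siderophores and is also induced in glia during inflammation. It had 43.5, 145, 136 and 314 normalized counts in ethanol 1 to 4, against 469.7, 84.0, 209 and 30.0 in saline 1 to 4. Saline libraries were again both the highest and the lowest, 15.7-fold apart. The fold was 1.02 (95% interval 0.391 to 2.66, limma adjusted p = 0.997).

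S100a8 and S100a9 encode the 2 subunits of calprotectin, a calcium- and zinc-binding complex that makes up much of the neutrophil cytosol. S100a8 had 509, 1127, 1755 and 3277 normalized counts in ethanol 1 to 4, against 3320.5, 825, 2327 and 711 in saline 1 to 4. S100a9 had 362, 399, 717 and 1399 in ethanol 1 to 4, against 1495, 332, 1034 and 391 in saline 1 to 4. For both genes ethanol 4 and saline 1 were the 2 highest libraries, and the groups overlapped. Folds were 0.924 (95% interval 0.454 to 1.88) for S100a8 and 0.922 (0.488 to 1.74) for S100a9, each with a limma adjusted p of 0.997. The 2 subunits had 141 to 282 reads of S100a8 per 100 reads of S100a9 in ethanol libraries and 182 to 248.5 in saline libraries. The exact 95% intervals of this ratio lay apart for ethanol 1 (122 to 163) and ethanol 2 (252 to 317).

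Retnlg and Mmp8, a pair of genes of later neutrophil stages in mouse, varied over a wider range and in another order. Retnlg, a resistin-like secreted protein gene, had 18.5, 134, 352 and 572 normalized counts in ethanol 1 to 4, against 36.1, 53.1, 353 and 222 in saline 1 to 4. Ethanol 1, saline 1 and saline 2 were the low libraries, and the highest value was 31.0-fold the lowest. Mmp8, neutrophil collagenase, had 7.60, 82.2, 122 and 323 in ethanol 1 to 4, against 4.62, 26.1, 295 and 99.0 in saline 1 to 4. Mmp8 was lowest in saline 1, where Ngp, Ltf and Lcn2 were highest, and its range was 69.9-fold. As a description, the log2 fold changes on the log2(value + 1) scale were 0.44 for Retnlg and 0.67 for Mmp8, and both turned negative without ethanol 4 (-0.20 and -0.05) or without saline 1 (-0.09 and -0.34).

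Mmp9, gelatinase B of tertiary granules, had 26.1, 61.2, 48.1 and 167 normalized counts in ethanol 1 to 4, against 62.0, 18.3, 157 and 51.8 in saline 1 to 4. Ethanol 4 and saline 3 stood above the other 6 libraries. The fold was 1.08 (95% interval 0.466 to 2.51, limma adjusted p = 0.997), from means of 75.5 ± 62.5 in ethanol and 72.3 ± 59.5 in saline libraries (SD, n = 4 each).

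Ly6c2, which encodes a form of the Ly6C antigen of classical monocytes, was low, at 8.69, 33.1, 60.2 and 59.7 normalized counts in ethanol 1 to 4 and 54.6, 13.5, 82.6 and 4.54 in saline 1 to 4. The fold of Ly6c2 was 1.35 (95% interval 0.436 to 4.16, limma adjusted p = 0.997). Its near-identical neighbour Ly6c1 was listed at 0 in all 8 libraries, so how reads were divided between these copies is uncertain. Of 6 other Ly6 genes tested, 4 had a positive and 2 a negative log2 fold change, with a median of 0.39, and 1 (Ly6g6d) had an unadjusted limma p under 0.05 but 0 an adjusted one.

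Ace encodes angiotensin-converting enzyme, a membrane peptidase that in blood is found on nonclassical monocytes as well as on endothelium. Ace was nearly absent from 4 libraries and present in the other 4. It had 1.09, 2.01, 68.2 and 83.3 normalized counts in ethanol 1 to 4, against 0, 0, 63.2 and 20.0 in saline 1 to 4. In reads these were 1, 2, 68 and 81 in ethanol libraries and 0, 0, 62 and 22 in saline libraries, where a count of 0 allows up to 3 reads, or 2.77 normalized counts in saline 1 and 2.90 in saline 2. Each group held 2 libraries of either kind. The preparation does not mark strand, and the gene that overlaps Ace on the other strand, Gm11651, was at 0 throughout.

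**Figure D1:**
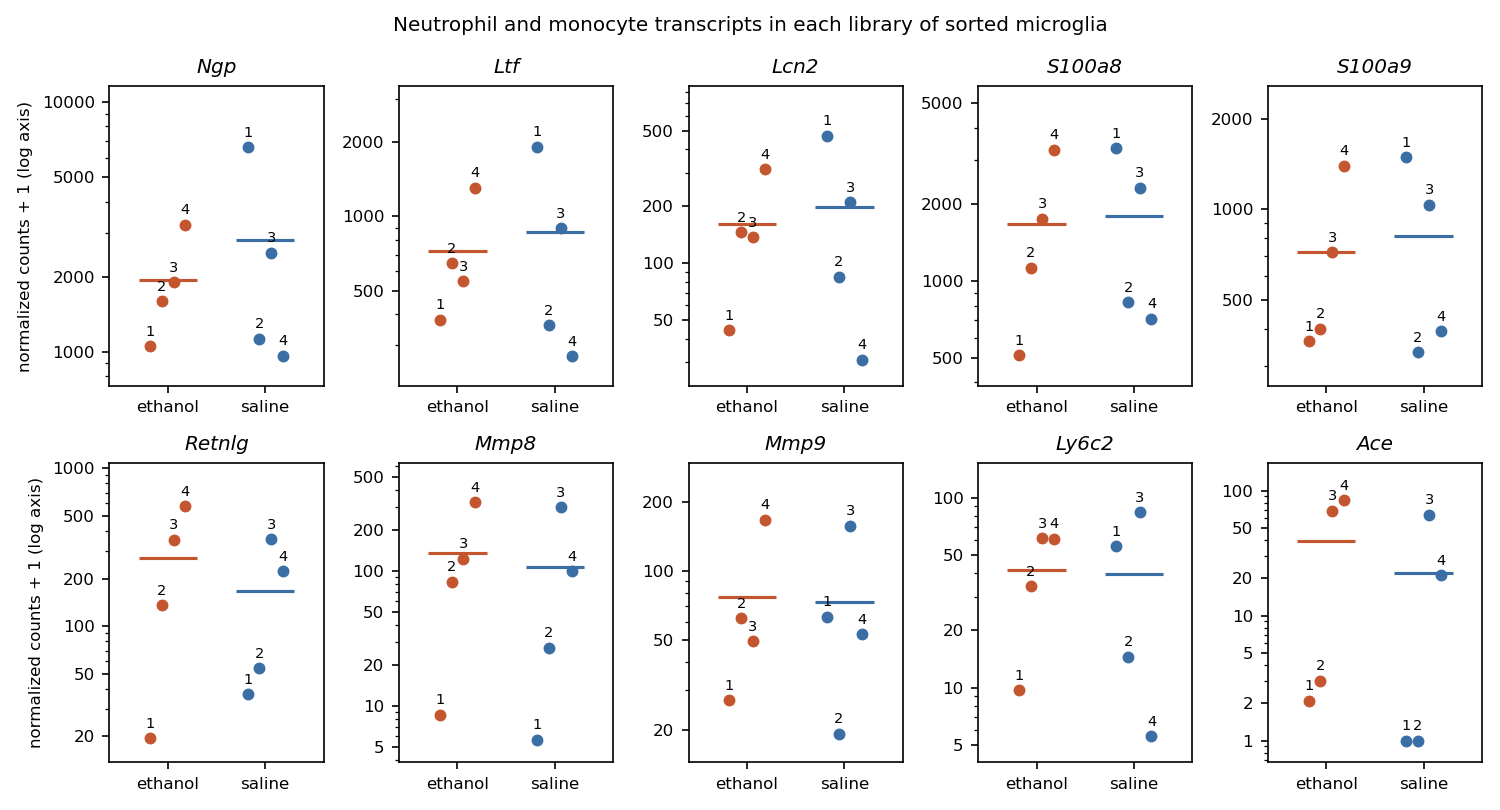
Normalized counts plus 1 (log axis) of the 10 genes in each library, ethanol on the left and saline on the right, with the sample number beside each point and a line at the group mean. Saline 1 is the highest library for Ngp, at 6596, and the lowest for Mmp8, at 4.62, and the groups overlap for all 10 genes.

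None of the 10 genes separated ethanol from saline microglia. By limma, 0 of the 7 genes tested had an adjusted p under 0.05, and over all genes 0 of 14428 did (0%). At an unadjusted p under 0.05 there were also 0 of these 7, where 3.63% of all tested genes passed, 1.7% higher and 1.93% lower in ethanol, and edgeR and DESeq2 likewise gave 0 of the 7 at either threshold. Values of the 4 ethanol and the 4 saline libraries overlapped for all 10, whereas 2.32% of all tested genes did not overlap. The median log2 fold change was 0.07 over the 10 genes and -0.01 over all tested genes, with 7 of the 10 positive and 3 negative. The intervals are wide: for each of the 7 tested genes the 95% interval of the fold reached down to 0.511 or lower and up to 1.67 or higher.

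Together the 10 genes took up a small and variable share of each library. Their reads made up 0.0367 ± 0.0223% of assigned reads in ethanol and 0.0440 ± 0.0345% in saline libraries (SD, n = 4 each). The lowest ethanol share was 0.0155% in ethanol 1 (95% Wilson interval 0.0149 to 0.0162) and the highest 0.0676% in ethanol 4 (0.0663 to 0.0689). Saline shares ran between 0.0176% in saline 4 (0.0170 to 0.0183) and 0.0907% in saline 1 (0.0892 to 0.0921). These intervals cover counting error only, and the spread between libraries is many times wider. Ngp alone supplied 30.1% to 43.7% of these reads in ethanol libraries and 31.6% to 47.2% in saline libraries. Per kilobase of exon, the mean level over the 8 libraries was 2495 normalized counts for S100a8, 1939 for Ngp and 1468 for S100a9, and it fell off to 14.4 for Ly6c2 and 5.62 for Ace.

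Most of these genes had a large spread between libraries for their level. The SD of log2(value + 1) over the 8 libraries was 1.03 for S100a8, 0.95 for Ngp and 0.98 for Ltf, against medians of 0.138, 0.128 and 0.170 among genes with a mean within 2-fold of theirs. Of those genes, 0.0312% had as large an SD as S100a8, 0.0822% as Ngp, 0.0222% as Ltf, 0.0443% as S100a9 and 0.357% as Lcn2. These shares count the gene itself, and S100a8 and Ltf each had the largest SD of their own set. Mmp9 and Ly6c2 stood out less, with 3.31% and 4.69%. Retnlg, Mmp8 and Ace, picked for this spread, had SDs of 1.76, 2.20 and 2.82. The other 7 were named with earlier results of these data known, so their spread is a description too.

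**Figure D2:**
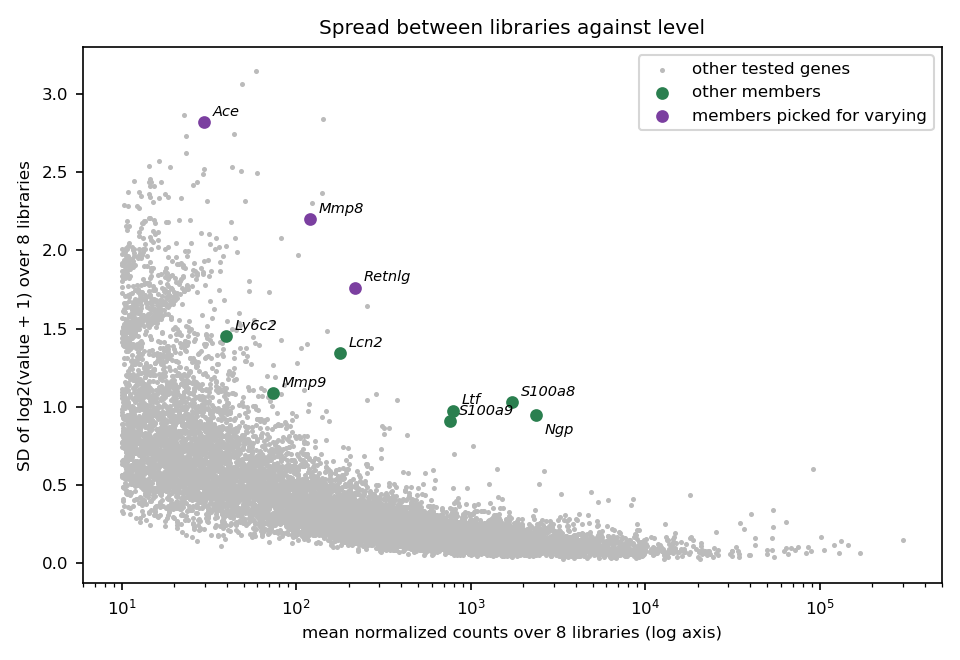
SD of log2(value + 1) over the 8 libraries against the mean normalized count (log axis) for all 14428 tested genes. Retnlg, Mmp8 and Ace, picked for varying, are in purple. The other 7 genes, named with earlier results of these data known, are in green. S100a8, Ngp, Ltf and S100a9, with SDs of 0.91 to 1.03, lie well above the band of genes at their level.

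Across the 8 libraries the specific granule genes and the calprotectin genes moved together. Over the 10 pairs among S100a8, S100a9, Ngp, Ltf and Lcn2, Pearson's r on log2(value + 1) was 0.865 to 0.975 and Spearman's rho 0.881 to 0.976. Ngp and Ltf were the closest pair, and 0.00693% of all tested genes, Ltf itself included, had as high an r with Ngp. Without saline 1 the range was 0.806 to 0.974, and without the 2 libraries farthest from the median of the first gene it was 0.691 to 0.992. Ltf had 28.7 to 40.6 reads per 100 reads of Ngp in ethanol libraries and 27.99 to 35.8 in saline libraries. These correlations are a description over libraries that share a preparation and a normalization, and the pairs are not independent of each other.

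Retnlg and Mmp8 formed a second pair, with r = 0.956 and rho = 0.976. With the 5 genes above, Retnlg and Mmp8 had r of -0.06 to 0.478 over 10 pairs, 0.126 for Retnlg with Ngp and 0.008 for Mmp8 with Ltf. This gap rests on saline 1: without it the same 10 pairs had r of 0.619 to 0.883, with 0.748 for Retnlg and Ngp and 0.693 for Mmp8 and Ltf. Without ethanol 1 and saline 1, the 2 libraries farthest from the median of Retnlg and of Mmp8, the range was 0.477 to 0.907. Ly6c2 was closest to Lcn2 (r = 0.899) and Mmp9 to S100a9 (r = 0.760). For Ace the libraries fall into 2 separate clusters, so no pooled r is given.

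**Figure D3:**
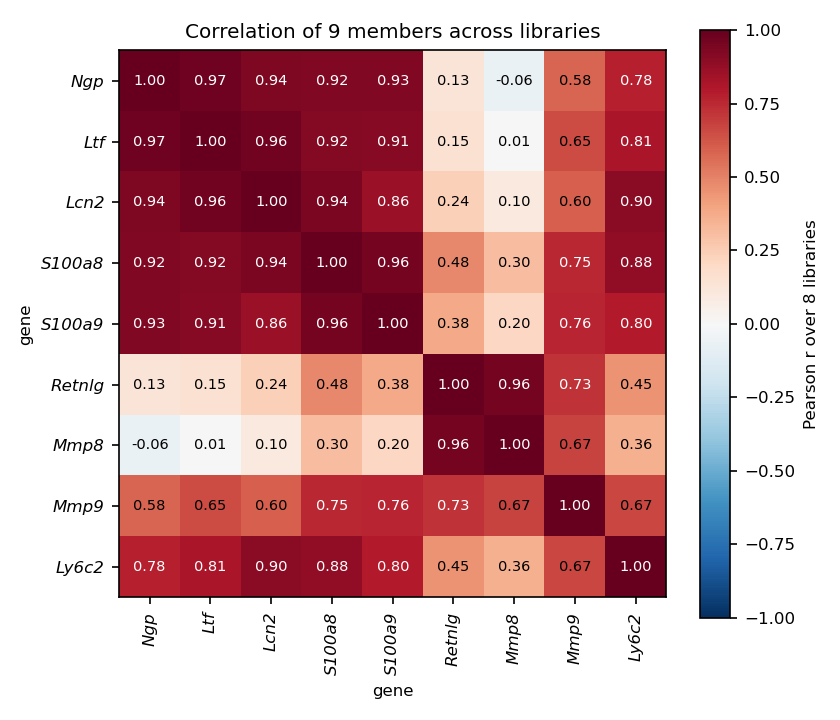
Pearson's r over the 8 libraries on log2(value + 1) for each pair of 9 genes, without Ace, as colour and number. The 5 genes at the upper left have r of 0.865 or more with each other, and Retnlg and Mmp8 have r of at most 0.478 with them and 0.956 with each other. Without saline 1, not shown, Retnlg and Mmp8 have r of 0.619 to 0.883 with those 5.

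Read ratios show the same within single libraries. Retnlg had 1.76, 8.44, 18.6 and 17.7 reads per 100 reads of Ngp in ethanol 1 to 4, against 0.547, 4.71, 14.1 and 23.0 in saline 1 to 4. In saline 1 these were 39 reads of Retnlg and 7133 of Ngp, with an exact 95% interval of 0.389 to 0.748 per 100, which lies below the interval of each other library. These intervals treat reads as independent, which amplified reads are not, so they may be too narrow. Mmp8 had 2.01, 12.8, 22.5 and 24.6 reads per 100 reads of Ltf in ethanol 1 to 4, against 0.240, 7.22, 33.0 and 36.7 in saline 1 to 4. Both ratios were low in ethanol 1, saline 1 and saline 2 and high in ethanol 3, ethanol 4, saline 3 and saline 4, with ethanol 2 in between.

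**Figure D4:**
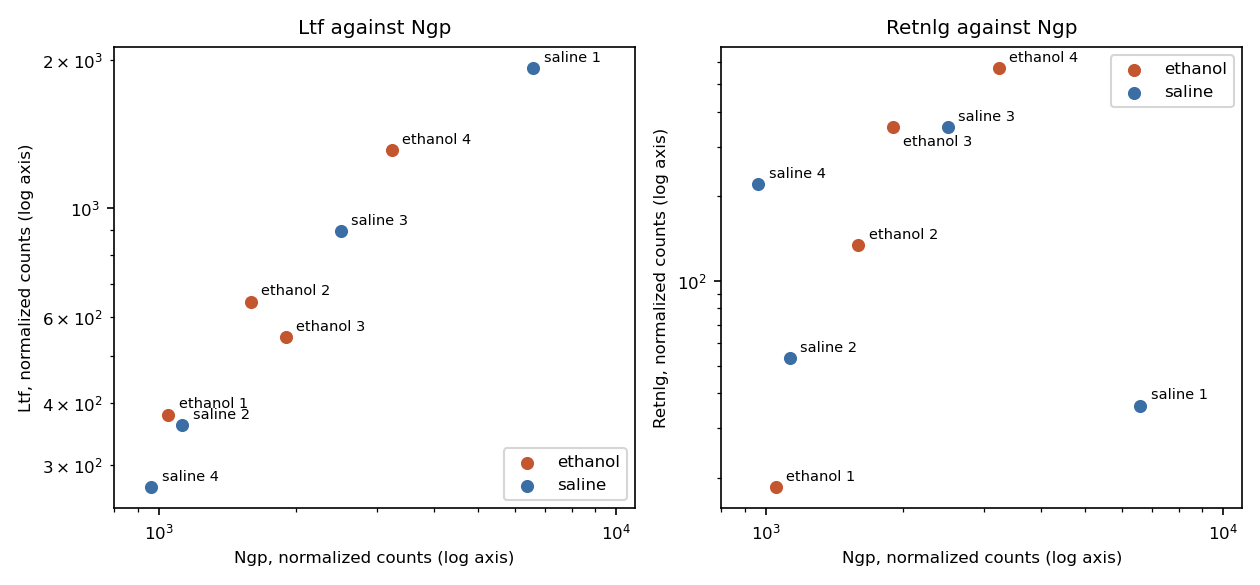
Normalized counts of Ltf (left) and Retnlg (right) against those of Ngp in each library, on log axes, with ethanol and saline libraries coloured. Ltf follows Ngp in all 8 libraries, and saline 1, with 6596 normalized counts of Ngp and 36.1 of Retnlg, stands apart on the right.

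Other granule genes peaked in different libraries, 4 of the 15 tested in saline 1 as Ngp did. These 15 genes came from a list of other neutrophil granule proteins, which also holds a receptor gene, Ltb4r1. Of the 15 genes, 4 had a positive and 11 a negative log2 fold change, with a median of -0.11. Of them, 0 passed the limma threshold, adjusted or unadjusted. Camp, the cathelicidin gene of specific granules, had 198, 227, 286 and 622 normalized counts in ethanol 1 to 4, against 930.2, 264, 430.2 and 89.0 in saline 1 to 4, with r = 0.923 to Ngp and 0.03 to Retnlg. Chil3 (chitinase-like 3, or Ym1), Fcnb (ficolin B) and Itgb2l were also highest in saline 1, the library where 12.3% of all tested genes were highest. Hp, Slpi and Cd177 were highest in saline 3, and Olfm4, Pglyrp1 and Ltb4r1 in ethanol 4. Even so, Hp, Pglyrp1, Ltb4r1 and Cd177 had r of 0.86, 0.85, 0.71 and 0.69 with Ngp. Their r with Retnlg was lower, at 0.47, 0.33, 0.30 and 0.26. Slpi and Olfm4 went the other way, with r of 0.63 and 0.18 to Ngp and 0.76 and 0.43 to Retnlg. Cyba, Cybb, Lyz2 and Mmp25 did too. Their r was 0.29, 0.56, 0.009 and 0.003 with Ngp, against 0.84, 0.77, 0.64 and 0.64 with Retnlg. Chil3, Fcnb and Itgb2l had r of 0.90, 0.63 and 0.76 with Ngp, against -0.16, -0.32 and 0.45 with Retnlg. Arg1 had a negative r with both, at -0.65 and -0.58. The 2 most abundant genes of the list are also made by microglia. Cyba, a subunit of the phagocyte oxidase, had 6913 to 8440 normalized counts in ethanol and 7329 to 9102 in saline libraries. Lyz2, lysozyme, had 4169 to 9722 in ethanol and 4611 to 6416 in saline libraries.

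Transcripts of the earliest granule wave were confined to few reads. Mpo, myeloperoxidase, was at 0 in all 4 ethanol libraries, against 18.5 normalized counts in saline 1, 5.10 in saline 3 and 0 in saline 2 and saline 4. Elane, neutrophil elastase, had 1.00 and 1.03 in ethanol 3 and ethanol 4, whereas saline 1 had 20.3 and saline 3 had 11.2, and it was at 0 in the rest. Prtn3, proteinase 3, was at 4.01 in ethanol 3 and at 0 in the other ethanol libraries, against 12.02 in saline 1 and 0.965 to 2.73 in the other saline libraries. These 3 were highest in saline 1. Ctsg, cathepsin G of the same granules, went another way, at 12.3 in ethanol 4 and at 0 in every other library, saline 1 included. Cebpe, the gene of C/EBP-epsilon, had 8.69, 20.1, 9.02 and 9.26 in ethanol 1 to 4, against 55.5, 14.5, 21.4 and 0 in saline 1 to 4. Of 6 tested genes of neutrophil development factors, 2 (Cebpe and Cebpd) were highest in saline 1, where 12.3% of all tested genes were highest. Cebpa and Cebpb were highest in saline 3, Spi1 in ethanol 3 and Runx1 in saline 4. Mpo, Elane, Prtn3 and Ctsg were under the level tested, and Cebpe and these genes were singled out after their values were seen.

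Neutrophil surface genes gave no call between the groups. Of 14 tested, 6 had a positive and 8 a negative log2 fold change, with a median of -0.01 and 0 past the limma threshold, adjusted or unadjusted. Ly6g, the gene of the antigen used to gate mouse neutrophils, had 11.9, 4.01, 16.04 and 34.0 normalized counts in ethanol 1 to 4, against 43.5, 6.76, 13.2 and 9.08 in saline 1 to 4. Cxcr2, the chemokine receptor of mature neutrophils, had 5.43, 4.01, 11.03 and 39.1 in ethanol 1 to 4, against 13.9, 1.93, 42.8 and 0.908 in saline 1 to 4. Ly6g was the 1 gene of the 14 that was highest in saline 1, where 12.3% of all tested genes were highest. Its r was 0.80 with Ngp and 0.09 with Retnlg. Cxcr2 was highest in saline 3 and ethanol 4, yet its r was 0.72 with Ngp and 0.43 with Retnlg. Csf3r, the receptor of granulocyte colony-stimulating factor, is also expressed by microglia and stayed between 8066 and 8233 in ethanol and between 7473 and 8676 in saline libraries.

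Of the nonclassical monocyte genes, 4 of the 13 tested had the same 4 highest libraries as Ace. Treml4, a receptor of that subset, had 8.69, 12.03, 153 and 165 normalized counts in ethanol 1 to 4, against 0, 12.5, 98.9 and 26.3 in saline 1 to 4. Cd300e had 0, 0, 32.1 and 107 in ethanol 1 to 4, against 0, 0, 6.12 and 38.1 in saline 1 to 4. The 4 were Treml4, Cd300e, Nr4a1 and Itgal, and their highest libraries were ethanol 3, ethanol 4, saline 3 and saline 4, as for 4.54% of all tested genes (655 of 14428). The other 9 had another set of 4. Between ethanol and saline, 10 of the 13 had a positive and 3 a negative log2 fold change, with a median of 0.92, and 0 passed the adjusted limma threshold. Adgre4, an adhesion receptor gene of nonclassical monocytes, was the 1 gene under an unadjusted p of 0.05 (log2 fold change 1.29, limma adjusted p = 0.997), and its ethanol values of 86.2 to 235 overlapped the saline values of 18.2 to 130.5.

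Classical monocyte genes gave no common pattern. Of 11 tested, 7 had a positive and 4 a negative log2 fold change, with a median of 0.07 and 0 past the adjusted limma threshold. Ccr2, the chemokine receptor that brings monocytes into tissue, had 124 to 291 normalized counts in ethanol and 186 to 248 in saline libraries. F13a1, which border macrophages also express, had 142 to 378 in ethanol and 146 to 749.8 in saline libraries. Fn1, the fibronectin gene, was the 1 gene under an unadjusted p of 0.05 (log2 fold change 2.82, limma adjusted p = 0.997), with 47.3 to 83.2 in ethanol and 0 to 125 in saline libraries.

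**Figure D5:**
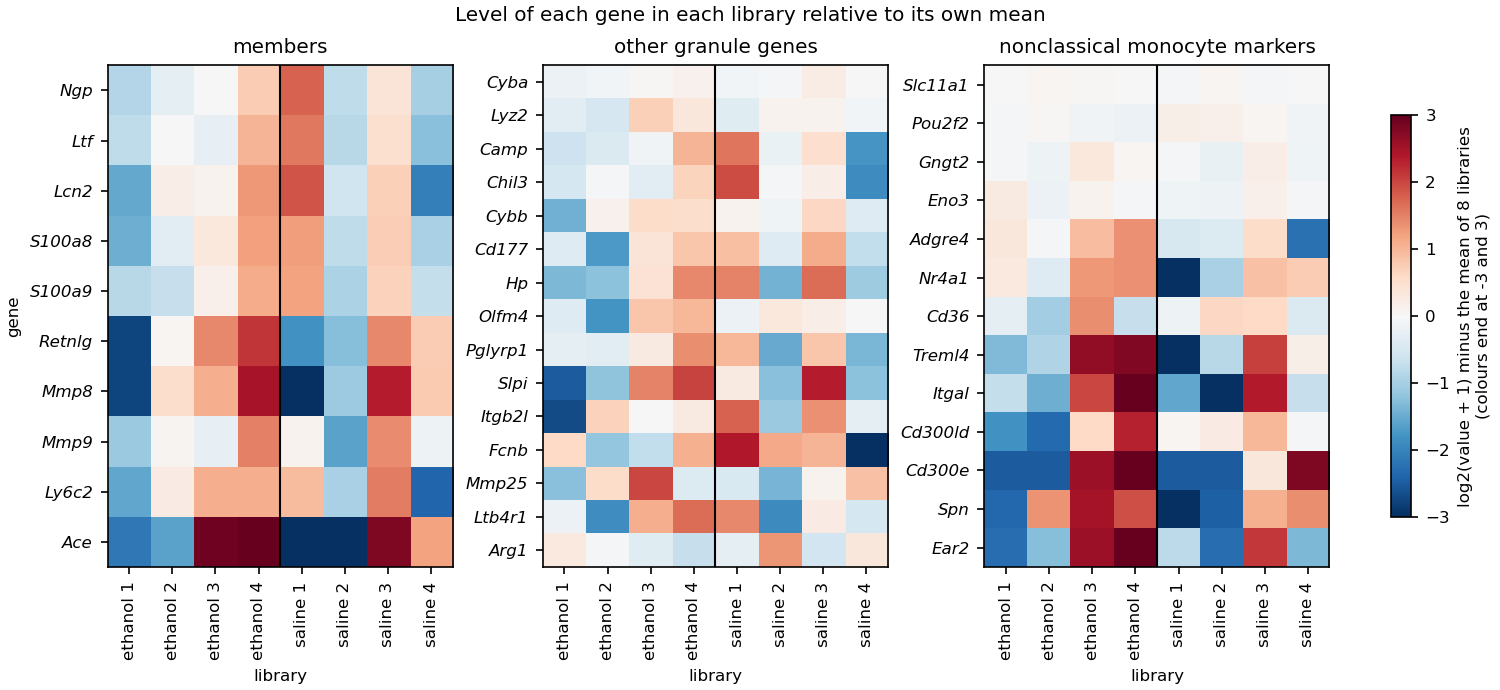
Level of each gene in each library as log2(value + 1) minus its mean over the 8 libraries, for the 10 genes, other granule genes and nonclassical monocyte genes, with ethanol libraries left of the line. Ngp, Ltf, Lcn2, Camp and Chil3 are deepest red in saline 1, while Ace, Treml4 and Cd300e are high only among ethanol 3, ethanol 4, saline 3 and saline 4.

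Genes for the partners of these proteins gave no call at the adjusted limma threshold either. The 8 genes of the list of S100a8 and S100a9 receptors were all tested, with 3 positive and 5 negative log2 fold changes and a median of -0.01. Among them Cd14, a co-receptor of Tlr4, had 9508 to 11190.0 normalized counts in ethanol and 9064 to 11270.0 in saline libraries. The list of S100 genes other than these 2 also holds S100pbp, which encodes a binding protein and no S100 protein. Of this list 8 genes were tested, 3 positive and 5 negative, S100pbp among the negative ones, with a median of -0.10. Of 16 tested metalloproteinase and inhibitor genes, 11 were positive and 5 negative, with a median of 0.08, and Timp1, the inhibitor that binds Mmp9, was at 0 in all 8 libraries. Of 8 tested iron and siderophore genes, 3 were positive and 5 negative, and Slc22a17, the gene of a Lcn2 receptor, had 1373 to 1741 in ethanol and 1359 to 1731 in saline libraries. In the list of the angiotensin system 4 genes were tested, all with a negative log2 fold change and a median of -0.05, and Ren1, Agtr1a and Agtr2 were at 0 in every library. Of the other resistin-like genes, Retnla and Retnlb were at 0 and Retn had 0.965 in saline 2 alone. At an unadjusted limma p under 0.05 there were 2 metalloproteinase and inhibitor genes (Mmp12 and Timp4), 1 gene of the angiotensin system (Lnpep) and 0 genes of the other lists in this paragraph.

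The genes most like each transcript were sought among 9910 others with a mean of at least 50, by Pearson's r over the 8 libraries. For Ngp they were Dld (r = 0.972), Camp (0.923) and Cpq (0.923), and for Ltf and Lcn2 they were Cpq, Camp and Lrch3. For S100a8 the first was Wfdc21 (0.971), a secreted protein gene, and for S100a9 it was Hp (0.975), haptoglobin, which neutrophils store in specific granules. For Retnlg they were Gnas (0.990), Sh3bgrl3 (0.975) and Stx8 (0.971), and for Mmp8 they were Tmem258, Itgb2 and Gnas. Gnas, a widely expressed G protein gene, had 416 to 743 normalized counts in ethanol and 466 to 729 in saline libraries, a far narrower range than Retnlg. Ly6c2 was most like Xdh, Wfdc21 and Mgst1, and Mmp9 was most like Rbx1, Pskh1 and Arf1. The genes nearest to Ace were Gmpr, Ccdc90b and Slc3a2, for which no r is given because of the 2 clusters.

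Measures of the whole library moved with Retnlg, Mmp8 and Ace. Ribosomal protein transcripts made up 1.03%, 1.04%, 1.35% and 1.34% of normalized counts in ethanol 1 to 4, against 1.10%, 1.12%, 1.44% and 1.195% in saline 1 to 4. Transcripts of the 13 mitochondrial protein-coding genes made up 0.865%, 0.939%, 1.21% and 1.22% in ethanol 1 to 4, against 1.04%, 0.905%, 1.34% and 1.17% in saline 1 to 4. Both shares were higher in ethanol 3, ethanol 4, saline 3 and saline 4, the libraries with Ace, than in the others. The first principal component of all tested genes, with 20.1% of the variance, also put these 4 libraries on one side. Saline 1, where Ngp was highest, lay on the other side. The part of these measures in the levels of Retnlg, Mmp8 and Ace was not tested.

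Library names carry the numbers 163, 164 and 165, whose meaning the labels do not give. Within 163, Retnlg had 352 normalized counts in ethanol 3 and 353 in saline 3, and Ngp had 1896 in ethanol 3 and 2499.6 in saline 3. Within 164, ethanol 4 had 572 of Retnlg, whereas saline 1 had 36.1 and saline 4 had 222. For Ngp, ethanol 4 had 3233, whereas saline 1 had 6596 and saline 4 had 964. Within 165, Retnlg had 18.5 and 134 in ethanol 1 and ethanol 2, against 53.1 in saline 2. For Ngp, ethanol 1 had 1050.5 and ethanol 2 had 1592, whereas saline 2 had 1127. With this number as a factor, the log2 fold change of Ngp was 0.09, that of S100a8 0.24 and that of S100a9 0.24, in the opposite direction to the fit without it, and no gene passed the adjusted limma threshold.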

How the data were processed

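From each sample, 500 pg of microglial RNA was turned into cDNA by SMARTer chemistry and amplified, and 150 pg of this went into NexteraXT libraries, which carry no strand or molecular identifiers, per the labels' protocols. Reads amplified from so little RNA are not independent molecules. Per the submitters' processing notes, STAR 2.7.9a, featureCounts 2.0.1, Salmon 1.5.2, DESeq2 and build GRCm39 were used. Which tool did what, with which settings and annotation, is not stated there.

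The authors deposited 1 table of signal values, which its name calls DESeq2-normalized counts, with 56832 rows and 8 libraries. Each non-zero value, set against the smallest in its library, was a whole multiple within 1e-06 (100% of values in all 8 libraries), so whole reads were recovered, and size factors recomputed from these reads matched within 3.7e-15.

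Samples were grouped by title and columns matched by library name. The test of ethanol against saline used limma 3.58.1 on log2(deposited value + 1) (variance trend, two-sided, Benjamini-Hochberg threshold 0.05) on 14428 genes with a mean of at least 10. Folds are on that scale, which understates changes of low genes. Spread was compared among genes whose mean lay within 2-fold. Exon lengths came from a GRCm38 annotation, matched by symbol. Shares have Wilson and read ratios exact intervals at 95%, for counting error only. Alternatives were pseudocounts of 0.5 and 5, no filter, a mean of at least 50, quantile normalization, library totals, a robust variance model, edgeR 4.0.16 (quasi-likelihood) and DESeq2 1.42.0 on the whole reads, the replicate number as a block, the library-name number as a factor, and leaving out each library. The fit was tested on simulated data.

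The members and all 22 gene lists were chosen with earlier results of these data known. Named genes were the 10 members and genes among the 3 most correlated with each (mean of at least 50, no numbered gene models). For some lists only, members among the 2 most abundant were named as well. Others were named after their values were seen. Lists of dendritic cell, glial, neuronal, border macrophage and blood cell markers served as checks of composition.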

Additional observations from a re-analysis of the deposited data

How the results depend on the processing

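The count of genes past the adjusted threshold was 0 under all 19 alternatives, and the adjusted p of each tested member stayed above 0.9. Directions were less stable. With the library-name number as a factor, log2 fold changes of S100a8, S100a9 and Ngp were 0.24, 0.24 and 0.094. On whole reads Ltf was -0.25 in edgeR and -0.26 in DESeq2, and Lcn2 was -0.30 and -0.31. Leaving out 1 library at a time, log2 fold changes ran from -0.20 to 1.43 for Retnlg, -0.34 to 1.70 for Mmp8, -0.54 to 0.35 for S100a8, -0.51 to 0.27 for S100a9, -0.40 to 0.61 for Mmp9, -0.57 to 0.36 for Ngp, -0.40 to 0.54 for Ltf, -0.65 to 0.66 for Lcn2, -0.29 to 1.02 for Ly6c2 and 0.32 to 2.33 for Ace. The correlation of Retnlg with Ngp ran from -0.15 (without ethanol 1) to 0.75 (without saline 1), and that of Mmp8 with Ltf from -0.23 to 0.69 (without saline 1), where a move of 0.25, a bound chosen after the values were seen, counted as a change. The cause was not tested. The replicate block left the count at 0 (645 genes at an unadjusted p under 0.05, against 524 without it). Whether sample numbers pair the libraries was not settled. Same-numbered libraries had correlated deviations of 0.028, 0.064, 0.080 and 0.014 for numbers 1 to 4. Ethanol 2 and ethanol 3 correlated best with the saline library of their number. Ethanol 1 correlated best with saline 2, at 0.137, and ethanol 4 with saline 3, at 0.091. Ace, Ly6c2 and Mmp9 had the lowest means of the 10 genes, at 29.7, 39.6 and 73.9 normalized counts. Mmp8 also rested on few reads in places, with 5 in saline 1 and 7 in ethanol 1. The part of depth in these folds was not tested.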

Other observations

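Adult hemoglobin transcripts were found almost entirely in ethanol 3. Hba-a1, an alpha-globin gene, had 36.1 normalized counts in ethanol 3 and was at 0 in the other 7 libraries, and Hbb-bs, a beta-globin gene, had 33.1 in ethanol 3 and 0.965 in saline 2. Ethanol 3 was not the highest library for any of the 10 neutrophil and monocyte transcripts.

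Border macrophage genes peaked in another library than the granule genes. Mrc1, a mannose receptor gene, had 318, 434, 273 and 462 normalized counts in ethanol 1 to 4, against 518, 762, 265 and 232 in saline 1 to 4. Cd163, a hemoglobin scavenger receptor gene, had 77.1, 145, 25.1 and 73.1 in ethanol 1 to 4, against 174, 297, 42.8 and 18.2 in saline 1 to 4. Both were highest in saline 2, where Ngp, S100a8 and Ace were low.

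Genes of cytotoxic lymphocytes were seen in a few libraries. Gzmb, granzyme B, had 30.9 in ethanol 4 and 9.08 in saline 4, and was at 0 in the other 6 libraries. Gzma, granzyme A, had 11.03 in ethanol 3 and 22.6 in ethanol 4, and was at 0 in the other 6. For Nkg7, ethanol 3 had 12.03, ethanol 4 had 6.17 and saline 4 had 12.7, with 0 in the other 5.

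Marker lists of other cell types gave 0 genes past the adjusted limma threshold. At an unadjusted limma p under 0.05 there were 1 endothelial and mural gene (Pdgfrb), 2 microglia markers (P2ry12 and P2ry13) and 0 genes of the other lists named here. Of 11 tested border macrophage genes, 6 had a positive and 5 a negative log2 fold change. The split was 4 and 1 for 5 endothelial and mural genes, 3 and 1 for 4 B cell genes, 4 and 2 for 6 dendritic cell genes, 6 and 3 for 9 astrocyte genes, 2 and 3 for 5 oligodendrocyte lineage genes, 3 and 3 for 6 neuron genes and 1 and 1 for 2 erythrocyte and platelet genes. The 1 tested gene of the T and NK cell list was positive. Of 6 tested genes of neutrophil development factors, 3 were positive and 3 negative. Of the 12 microglia markers, 9 were positive and 3 negative.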
